A study of Mus musculus with 22 samples.

Results

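Germ cells of the male carry their own versions of several glycolytic enzymes. The set described here holds 10 genes, chosen by name as germ cell isozymes of glycolysis and their counterparts in other tissues, and 6 of them were among the 15780 named genes of the array. These were Slc2a3 (Entrez Gene 20527, chromosome 6), Hk1 (15275, chromosome 10), Gapdhs (14447, chromosome 7), Pgk2 (18663, chromosome 17), Pgam2 (56012, chromosome 11) and Ldhc (16833, chromosome 7). The somatic counterparts Gapdh, Pgk1, Pgam1 and Ldha were not analysed here, so no ratio of a germ cell isozyme to its somatic form is given.

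Glycolysis turns glucose into pyruvate and yields ATP, and lactate dehydrogenase interconverts pyruvate and lactate. Pgk2 is an intronless copy of the X-linked gene Pgk1, and Ldhc is a testis-specific relative of Ldha. In mouse sperm the GAPDHS protein is bound to the fibrous sheath of the tail, and loss of Gapdhs, Pgk2 or Ldhc impairs sperm motility in mice. Spermatocytes and spermatids are known to use lactate from Sertoli cells, which nurse the germ cells.

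The series compared Ts43H trisomic male mice, in which the proximal segment of chromosome 17 is present in an additional copy, with t121/D17 euploid brothers, all 2 months old. The 3 germ cell populations were obtained by fluorescence-activated sorting of testicular cell suspensions, and liver was the somatic tissue. There were 3 trisomic and 3 euploid arrays of pre-mid-pachytene spermatocytes, 2 and 2 of mid-late-pachytene spermatocytes, 3 and 3 of spermatids, and 3 and 3 of liver. Biotin-labelled cRNA was made from 20 to 30 ng of total RNA in 2 rounds of amplification. Whether replicate arrays stand for different animals is not stated, so the p-values measure the spread between these arrays, which may be technical. All levels are log2 intensities per probe set, all differences are differences of log2 levels, and values below 3 are called the background range.

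Array medians over the named genes ran from 4.15 to 4.75, and arrays of the same group correlated across genes with r between 0.988 and 0.997. The cell type markers matched the fraction labels in part. Hepatocyte markers had a mean list median of 16.05 in trisomic and 15.999 in euploid liver, and 2.33 to 2.46 in the germ cell groups. Early meiotic prophase markers were highest in pre-mid-pachytene cells, pachytene markers in mid-late-pachytene cells and round spermatid markers in spermatids. Elongating spermatid markers, however, were high in the pre-mid-pachytene fraction as well (14.32 in trisomic and 14.28 in euploid arrays). The first euploid liver array stood apart for 3 germ cell genes: it read 7.09 for Prm1, 4.59 for Prm2 and 5.65 for Ldhc, while the other 5 liver arrays lay between 2.74 and 2.97, between 1.92 and 2.51 and between 1.96 and 2.22. The list medians of spermatogonia markers averaged 2.29 to 4.21 and of Sertoli cell markers 2.995 to 3.57 over the germ cell groups. Those of Leydig, peritubular and macrophage markers averaged 2.07 to 2.78. Single genes read higher in the pre-mid-pachytene fraction: Dazl 14.50 to 14.84, Stra8 7.79 to 9.46 and the Sertoli marker Cldn11 6.48 to 7.49. The Sertoli markers Amh and Fshr were in the background range there. In bulk samples of this kind, fewer cells of a type and less RNA per cell cannot be told apart.

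The isozymes Ldhc, Pgk2, Gapdhs and Pgam2 are shown by the 250 bases before their first listed RefSeq start (GRCm38.p6). They lie at chr7:46861013-46861262 on the plus strand (Ldhc), chr17:40208610-40208859 on the minus strand (Pgk2), chr7:30743682-30743931 on the minus strand (Gapdhs) and chr11:5803797-5804046 on the minus strand (Pgam2), each written 5′ to 3′ in the direction of its gene. Capitals mark TGACG (the core of the cyclic AMP response element), GGGCGG (the GC box) and GTTGCC (a core bound by RFX factors), searched on both strands.
Ldhc: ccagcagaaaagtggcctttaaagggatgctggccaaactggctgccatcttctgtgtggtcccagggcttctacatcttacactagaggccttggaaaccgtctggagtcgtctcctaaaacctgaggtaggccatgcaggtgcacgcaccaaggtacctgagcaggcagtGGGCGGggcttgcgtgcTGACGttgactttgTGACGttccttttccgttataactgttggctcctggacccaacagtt
Pgk2: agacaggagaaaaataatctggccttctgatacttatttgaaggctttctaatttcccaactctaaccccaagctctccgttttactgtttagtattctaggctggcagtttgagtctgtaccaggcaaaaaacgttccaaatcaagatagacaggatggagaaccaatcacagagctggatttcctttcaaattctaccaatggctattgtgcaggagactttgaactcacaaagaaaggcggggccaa
Gapdhs: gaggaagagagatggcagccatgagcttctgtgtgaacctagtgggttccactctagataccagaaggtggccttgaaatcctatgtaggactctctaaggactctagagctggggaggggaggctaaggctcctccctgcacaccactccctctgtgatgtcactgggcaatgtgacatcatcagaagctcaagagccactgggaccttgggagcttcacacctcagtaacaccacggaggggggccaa
Pgam2: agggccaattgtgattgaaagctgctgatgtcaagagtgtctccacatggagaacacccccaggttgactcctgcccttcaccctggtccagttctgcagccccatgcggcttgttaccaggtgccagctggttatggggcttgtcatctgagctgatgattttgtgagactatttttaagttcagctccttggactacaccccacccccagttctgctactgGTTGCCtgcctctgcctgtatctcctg
The Ldhc window held 2 matches to TGACG, which began 61 and 47 bases before the start, and 1 GC box at 78 bases. The window of a second listed Ldhc start (chr7:46861237-46861486) held neither motif. Of 32851 windows of the same length in the RefSeq promoter table, 17.8% held at least 1 match to TGACG, 3.90% held 2 or more and 32.7% held a GC box. The Pgam2 window held 1 match to GTTGCC, 27 bases before the start, against 10.4% of all windows. Neither the Pgk2 nor the Gapdhs window held any of the 3 motifs. AACNG, the core bound by MYB factors, matched 7 times in the Ldhc window, 3 times in the Pgk2 window, 2 times in the Pgam2 window and not in the Gapdhs window. It matched 3 times in the window of the second Ldhc start. At least 1 match to AACNG was present in 74.2% of all windows. TATAAA, the TATA box, was in none of the 4 windows and in 12.4% of all windows. A match is a run of letters, and binding was not measured.

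All 6 genes were strongly present in germ cells but did not all move alike between the germ cell stages. In liver they were at or near the background range, apart from Slc2a3 on the euploid arrays (3.76 to 4.91) and Ldhc on the first euploid array (5.65). Between pre-mid-pachytene and mid-late-pachytene cells, Slc2a3 and Pgam2 rose and Gapdhs fell in both genotypes. Elongating spermatid markers were also high in the pre-mid-pachytene fraction, and their part in the values of that fraction was not tested. Between mid-late-pachytene cells and spermatids, Gapdhs and Pgk2 rose and Slc2a3 fell in both genotypes. No gene of the set passed the test between trisomic and euploid germ cells. The genes are described below in the order of the pathway, from glucose uptake to lactate.

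Slc2a3 encodes GLUT3, a glucose transporter of high affinity that is known from neurons and sperm. It read 13.08, 13.21 and 13.01 on the trisomic and 12.81, 12.52 and 13.17 on the euploid arrays of pre-mid-pachytene cells. In mid-late-pachytene cells it had 15.82 and 15.91 on the trisomic and 15.54 and 16.06 on the euploid arrays. Spermatid arrays gave 14.33, 14.57 and 14.38 for trisomic and 14.34, 14.54 and 14.22 for euploid males. The level was thus highest in mid-late-pachytene cells and lowest in pre-mid-pachytene cells, with no overlap between stages. From pre-mid to mid-late pachytene it rose by 2.77 in trisomic (adjusted p = 3.05e-07, limma) and by 2.96 in euploid males (adjusted p = 1.31e-07), a fold of 7.8 in euploid males. In spermatids it fell again, with a difference of -1.44 in trisomic (adjusted p = 0.000522) and -1.43 in euploid males (adjusted p = 0.000541) relative to mid-late-pachytene cells. Spermatids stayed above pre-mid-pachytene cells by 1.32 in trisomic and 1.53 in euploid males, which became 0.73 and 0.77 with quantile normalization between arrays and still passed. Liver arrays read 2.38, 2.80 and 3.14 in trisomic and 4.41, 3.76 and 4.91 in euploid males.

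Hk1 encodes hexokinase 1, which phosphorylates glucose in the first step of the pathway, and mouse spermatogenic cells are known to make their own transcripts of the gene. Its SD reached 1.22 in euploid spermatids, the highest of the set in a germ cell group. Pre-mid-pachytene cells had 9.67, 9.92 and 10.38 on the trisomic and 8.74, 9.89 and 8.65 on the euploid arrays. Mid-late-pachytene cells had 10.84 and 11.88 on the trisomic and 12.14 and 12.28 on the euploid arrays. Spermatids had 12.86, 10.81 and 12.76 on the trisomic and 14.12, 13.49 and 11.76 on the euploid arrays. Pre-mid-pachytene cells were below both later stages on every array, and the ranges of the later stages overlapped. Spermatids lay above pre-mid-pachytene cells by 2.15 in trisomic (95% interval 0.88 to 3.43, adjusted p = 0.00571) and by 4.03 in euploid males (2.75 to 5.31, adjusted p = 1.99e-05). From pre-mid to mid-late pachytene Hk1 rose in euploid males by 3.11 (adjusted p = 0.00089), while the trisomic difference was 1.37 (-0.05 to 2.80, adjusted p = 0.114). The stage differences were not shown to differ between the genotypes, with an interaction of -1.74 (-3.59 to 0.11, adjusted p = 0.433). In liver it had 2.16, 2.98 and 2.51 on the trisomic and 2.997, 2.48 and 3.38 on the euploid arrays.

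Gapdhs encodes the sperm form of glyceraldehyde-3-phosphate dehydrogenase. Its values were 13.11, 13.56 and 13.96 on the trisomic and 13.32, 13.60 and 13.42 on the euploid arrays of pre-mid-pachytene cells. In mid-late-pachytene cells they were 10.19 and 10.08 on the trisomic and 11.16 and 9.61 on the euploid arrays. In spermatids they were 14.12, 13.80 and 14.35 on the trisomic and 14.45, 14.16 and 14.59 on the euploid arrays. Mid-late-pachytene cells were the low point, below every array of the other germ cell groups. Gapdhs fell by 3.41 in trisomic (adjusted p = 5e-06) and by 3.06 in euploid males (adjusted p = 1.63e-05) between pre-mid and mid-late pachytene. It then rose by 3.96 in trisomic (adjusted p = 1.89e-06) and by 4.01 in euploid males (adjusted p = 1.62e-06) in spermatids. Spermatids were above pre-mid-pachytene cells by 0.54 in trisomic (adjusted p = 0.282) and 0.95 in euploid males (adjusted p = 0.052), neither of which passed. The euploid difference passed under 4 other settings: trended robust priors (adjusted p = 0.0455), autosomal centring (0.0176), only the arrays compared (0.00279) and a filter on the mean (0.0243). It also passed under 2 settings chosen after seeing the data, germ cell arrays alone (adjusted p = 0.0312) and leaving out the first euploid liver array (adjusted p = 0.0487), and with quantile normalization it was 0.15. Liver arrays read 3.12, 2.76 and 1.60 in trisomic and 2.67, 1.91 and 1.94 in euploid males.

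The elongating spermatid markers had the same order of stages as Gapdhs. Over the 9 marker genes on the array, the mean of the list median was 14.32 in trisomic and 14.28 in euploid pre-mid-pachytene cells, 10.74 in trisomic and 11.24 in euploid mid-late-pachytene cells, and 14.72 in trisomic and 14.998 in euploid spermatids. Within the euploid mid-late-pachytene pair, the array with the higher Gapdhs level (11.16) also had the higher marker median (11.81), and the array with the lower level (9.61) had 10.67. The trisomic pair went the other way, with Gapdhs at 10.19 beside a marker median of 10.61 and at 10.08 beside 10.87. None of the 9 markers was in the background range on a germ cell array. The part of elongating spermatids in the levels of Gapdhs, or of any other gene, in the spermatocyte fractions was not tested. Slc2a3 had the same order of stages as the pachytene markers, whose mean list median over 11 genes was 8.36 in trisomic and 9.59 in euploid pre-mid-pachytene cells, 12.83 in trisomic and 12.68 in euploid mid-late-pachytene cells, and 11.10 in trisomic and 11.41 in euploid spermatids.

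**Figure D1:**
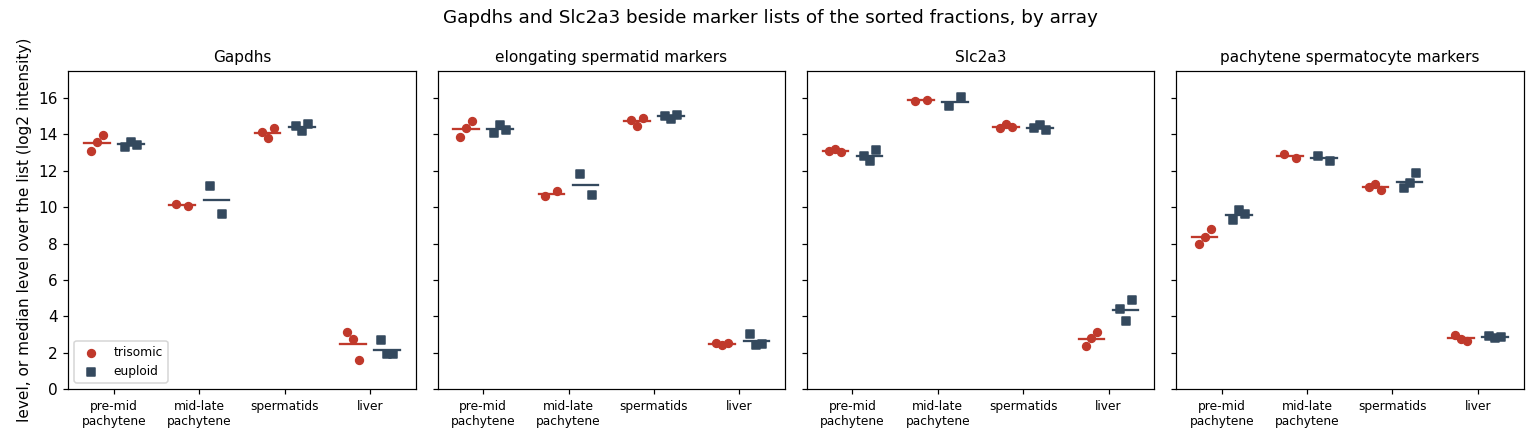
Level of Gapdhs and Slc2a3 and median level of 2 marker lists on each array (log2 intensity, vertical axis) by cell type (horizontal axis); circles are trisomic and squares euploid arrays, and bars are group means. Gapdhs and the elongating spermatid markers are lowest among the germ cells in mid-late-pachytene cells, where Slc2a3 and the pachytene markers are highest.

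Pgk2 encodes phosphoglycerate kinase 2, which carries out the ATP-yielding step after GAPDHS; its X-linked counterpart Pgk1 is silenced in meiosis. Pre-mid-pachytene arrays read 13.80, 14.21 and 14.71 in trisomic and 14.15, 14.53 and 14.27 in euploid males. Mid-late-pachytene arrays read 14.79 and 14.74 in trisomic and 14.87 and 14.79 in euploid males. Spermatid arrays read 15.89, 16.05 and 15.92 in trisomic and 15.85, 15.997 and 16.16 in euploid males. The spermatid arrays stood above every spermatocyte array. From mid-late pachytene to spermatids Pgk2 rose by 1.19 in trisomic (95% interval 0.58 to 1.80, adjusted p = 0.00324) and by 1.17 in euploid males (0.56 to 1.78, adjusted p = 0.00355). Between the pachytene fractions it differed by 0.52 in trisomic (adjusted p = 0.167) and 0.51 in euploid males (adjusted p = 0.153). Those 2 differences did not pass, and the euploid one was -0.08 with quantile normalization and 0.83 with each array centred on its autosomal median (adjusted p = 0.012). Spermatids exceeded pre-mid-pachytene cells by 1.71 in trisomic (adjusted p = 2.09e-05) and 1.69 in euploid males (adjusted p = 2.48e-05). The euploid value was 1.01 with quantile normalization (adjusted p = 0.00255). In liver Pgk2 had 2.83, 3.26 and 3.95 on the trisomic and 3.50, 3.44 and 2.82 on the euploid arrays.

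Pgam2 encodes phosphoglycerate mutase 2, the form known from muscle and testis, which moves the phosphate group of 3-phosphoglycerate. Pre-mid-pachytene cells had 12.46, 13.06 and 13.31 on the trisomic and 12.78, 12.92 and 13.44 on the euploid arrays. Mid-late-pachytene cells had 15.23 and 15.14 on the trisomic and 15.08 and 14.96 on the euploid arrays. Its spermatid values were 15.39, 15.36 and 15.55 on the trisomic and 15.27, 15.30 and 15.45 on the euploid arrays. The step lay between the pachytene fractions, and the spermatid arrays were slightly above the mid-late-pachytene arrays with no overlap. Pgam2 rose there by 2.24 in trisomic (adjusted p = 1.28e-06) and by 1.97 in euploid males (adjusted p = 5.26e-06). Spermatids differed from mid-late-pachytene cells by 0.25 in trisomic (95% interval -0.30 to 0.79, adjusted p = 0.639) and by 0.32 in euploid males (-0.22 to 0.86, adjusted p = 0.431). Liver arrays read 3.05, 3.76 and 3.82 in trisomic and 3.15, 3.02 and 2.65 in euploid males.

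Ldhc encodes the testis-specific subunit of lactate dehydrogenase. Pre-mid-pachytene cells had 15.38, 15.44 and 15.60 on the trisomic and 15.19, 15.43 and 15.42 on the euploid arrays. In mid-late-pachytene cells it had 16.15 and 16.14 on the trisomic and 16.21 and 16.23 on the euploid arrays. Spermatids had 16.14, 16.11 and 16.12 on the trisomic and 16.19, 16.08 and 16.15 on the euploid arrays. Every pre-mid-pachytene array was below every later array. Ldhc lay 0.24 to 1.28 below the highest value of its array on the germ cell arrays and was ranked between 4 and 19 from the top, and a loss of range at that height was not tested. Liver arrays read 1.96, 2.22 and 2.03 in trisomic and 5.65, 2.19 and 1.97 in euploid males.

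The stage differences of Ldhc depended on 1 liver array. Mid-late exceeded pre-mid pachytene by 0.67 in trisomic (SE 0.69, adjusted p = 0.513) and by 0.87 in euploid males (SE 0.69, adjusted p = 0.319) when all 22 arrays shared 1 spread. With only the arrays compared in the fit, the adjusted p was 0.00408 in trisomic and 0.00423 in euploid males. With germ cell arrays alone, an alternative chosen after seeing the data, the differences were the same and the SE was 0.077, with adjusted p = 1.29e-05 in trisomic and 1.37e-06 in euploid males. Without the first euploid liver array, the adjusted p was 1.38e-05 in trisomic and 8.52e-07 in euploid males. Spermatids exceeded pre-mid-pachytene cells by 0.65 in trisomic and 0.80 in euploid males, with adjusted p = 4.81e-06 in trisomic and 8.42e-07 in euploid males on germ cell arrays alone. Between mid-late-pachytene cells and spermatids the difference was -0.02 in trisomic (95% interval -0.19 to 0.15 on germ cell arrays) and -0.08 in euploid males (-0.25 to 0.09). Quantile normalization gave a mid-late minus pre-mid difference of 0.22 in trisomic and 0.23 in euploid males.

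**Figure D2:**
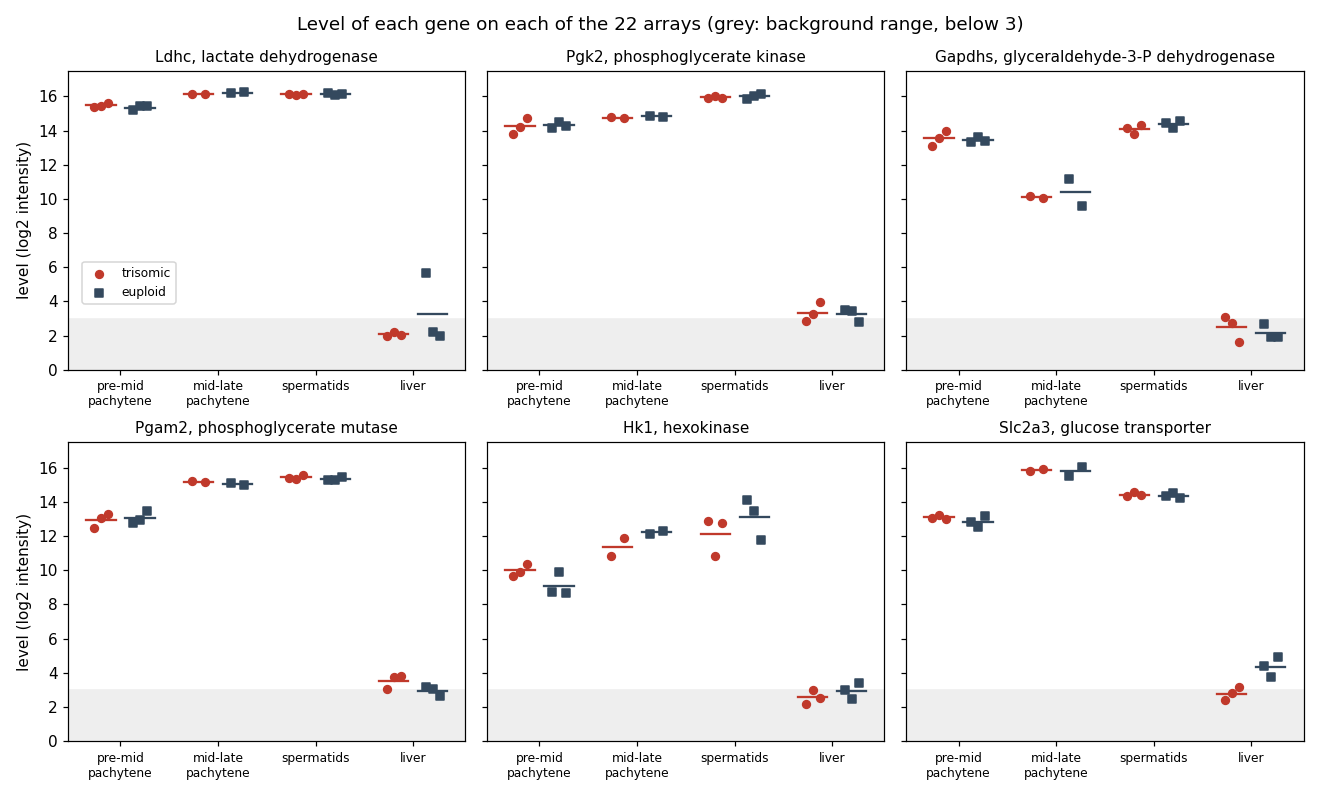
Level of each gene on each array (log2 intensity, vertical axis) by cell type (horizontal axis); circles are trisomic and squares euploid arrays, bars are group means and grey marks values below 3. All germ cell arrays lie above all liver arrays for each gene, and the first euploid liver array stands out for Ldhc at 5.65.

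Counted over the set, 3 of 6 genes passed in trisomic and 4 of 6 in euploid males between pre-mid and mid-late pachytene, where 47.0% of all 15780 genes passed in trisomic and 50.8% in euploid males. The trisomic count was 5 when each array was centred on its autosomal median, against 70.7% of all genes under that scaling, which moved the median difference of all genes to 0.27 in trisomic and 0.38 in euploid males, against 0.04 and 0.06 as deposited. Between mid-late-pachytene cells and spermatids 3 of 6 passed in each genotype, against 35.3% of all genes in trisomic and 36.5% in euploid males. Between pre-mid-pachytene cells and spermatids 4 of 6 passed in each genotype, all of them higher in spermatids, against 53.4% of all genes in trisomic and 53.3% in euploid males in either direction and 29.8% and 30.6% higher in spermatids. On germ cell arrays alone, 4 of 6 passed in trisomic and 5 of 6 in euploid males between pre-mid and mid-late pachytene, against 47.3% of all genes in trisomic and 54.0% in euploid males. Between pre-mid pachytene and spermatids that fit called 5 of 6 in trisomic and 6 of 6 in euploid males, against 53.6% and 53.7% of all genes. The counts of the set thus lay above the shares of all genes in these comparisons. They were nearest for 3 of 6 against 47.0% and farthest apart for 6 of 6 against 53.7%. Whether so small a set of chosen genes passed more often than other genes was not tested.

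**Figure D3:**
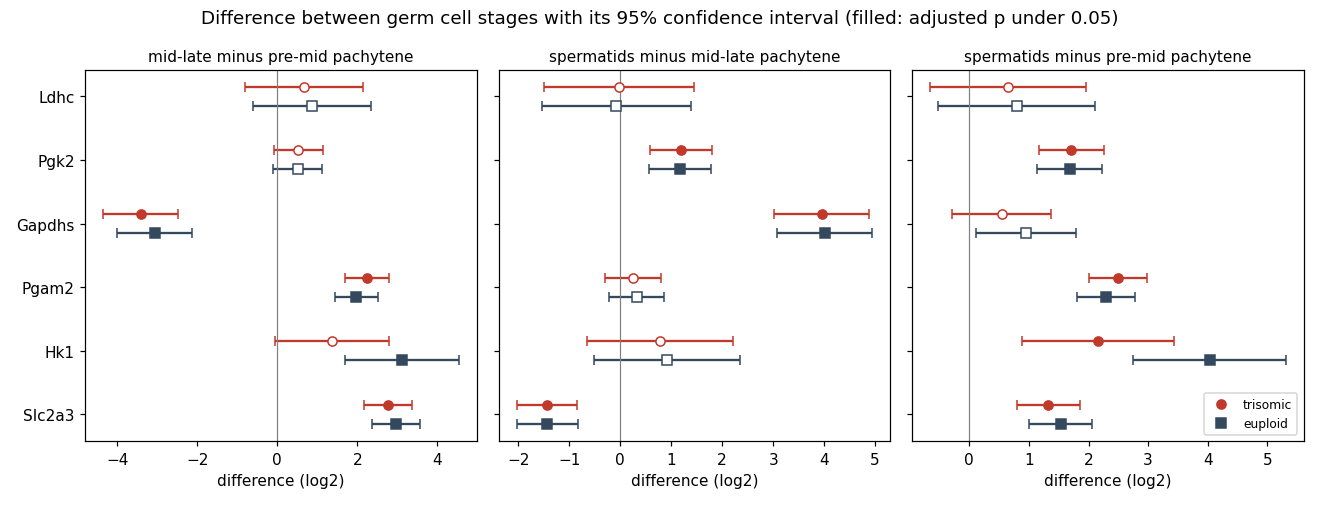
Difference between germ cell stages (log2, horizontal axis) for each gene (vertical axis), with its 95% confidence interval from the fit of all 22 arrays; circles are trisomic and squares euploid males, and filled symbols passed at an adjusted p under 0.05. Gapdhs falls by 3.41 in trisomic and 3.06 in euploid males in the left panel and returns in the middle panel.

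The comparison of the genotypes asked whether transcript levels differ in cells with the additional segment. In pre-mid-pachytene cells 0 of 6 genes passed, against 10.3% of 8384 genes tested (limma). In mid-late-pachytene cells 0 of 6 passed, against 0.965% of 8085, and in spermatids 0 of 6, against 0.821% of 8283. The smallest unadjusted p of the set was 0.0974, and the count was 0 under every alternative run in germ cells. At an unadjusted p under 0.05, 2159, 619 and 720 of all genes would pass in the same order of stages. Slc2a3, Gapdhs, Pgk2, Pgam2 and Ldhc differed by -0.31 to 0.27 in all 3 germ cell types. For Ldhc on germ cell arrays alone the differences were 0.13 in pre-mid-pachytene cells (95% interval -0.14 to 0.39), -0.07 in mid-late-pachytene cells (-0.39 to 0.24) and -0.02 in spermatids (-0.28 to 0.24).

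Hk1 had the largest differences of the set in all 3 germ cell types, with wide intervals. The trisomic minus euploid difference was 0.89 in pre-mid-pachytene cells (adjusted p = 0.333, 95% interval -0.28 to 2.07). It was -0.85 among the mid-late-pachytene arrays (adjusted p = 0.999, interval -2.29 to 0.59) and -0.98 among the spermatid arrays (adjusted p = 0.716, interval -2.16 to 0.20). Leaving out single arrays moved the pre-mid-pachytene value between 0.67 and 1.29 and the mid-late-pachytene value between -1.37 and -0.33. The spermatid value moved between -1.66 and -0.31. The difference of the genotype effects between spermatids and pre-mid-pachytene cells was -1.88 (-3.54 to -0.22, adjusted p = 0.266), and 0 of 6 genes passed any of the 3 interactions among germ cells, where 0.108%, 0.0131% and 0.243% of genes passed for mid-late minus pre-mid pachytene, spermatids minus mid-late pachytene and spermatids minus pre-mid pachytene. In mid-late-pachytene cells, with 2 arrays against 2, trisomic and euploid arrays did not overlap for Hk1, Pgk2, Pgam2 and Ldhc. Each of these differences had an adjusted p of 0.999 (limma), and the share of all genes without overlap was not counted. The lack of overlap is therefore not read as a difference between the genotypes. In the pre-mid-pachytene fraction the pachytene markers were lower on the trisomic arrays (7.95 to 8.78) than on the euploid arrays (9.31 to 9.86). The list median of round spermatid markers was also lower there without overlap (8.76 to 9.45 on trisomic and 9.50 to 10.34 on euploid arrays). So was that of spermatogonia markers (2.91 to 3.85 on trisomic and 3.87 to 4.86 on euploid arrays). In this list 3 to 5 of 8 genes on trisomic and 2 to 3 on euploid arrays were in the background range. Of its genes, Dazl was higher on trisomic arrays (14.71 to 14.84) than on euploid arrays (14.50 to 14.69), and Stra8 overlapped. The list medians of early meiotic prophase markers overlapped in that fraction (12.79 to 13.09 on trisomic and 12.76 to 13.19 on euploid arrays). Those of elongating spermatid markers overlapped as well (13.88 to 14.74 on trisomic and 14.08 to 14.53 on euploid arrays), as did those of the remaining marker lists. The part of the 3 lists without overlap in the values of that fraction was not tested.

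**Figure D4:**
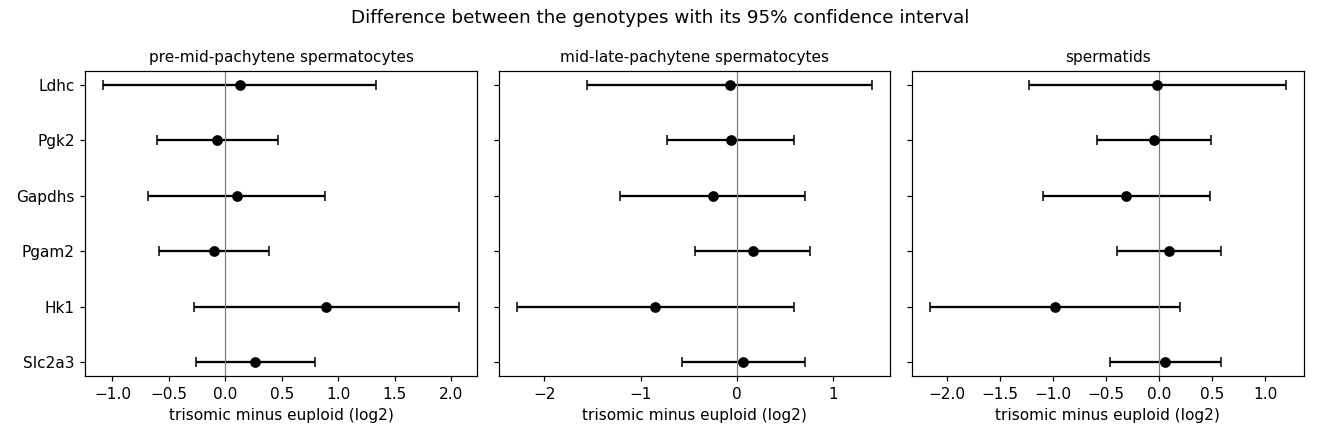
Trisomic minus euploid difference (log2, horizontal axis) for each gene (vertical axis) in the 3 germ cell types, with its 95% confidence interval from the fit of all 22 arrays. Every interval includes 0, and those of Hk1, and of Ldhc through 1 liver array, are the widest.

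Pgk2 is the gene of the set on chromosome 17, and the labels do not give the breakpoint of the trisomic segment. Its trisomic minus euploid difference was -0.07 in pre-mid-pachytene cells, -0.07 in mid-late-pachytene cells, -0.05 in spermatids and 0.09 in liver. Among its 20 nearest neighbours with a mean of at least 6, 10 on each side, the median difference was 0.07, 0.03, 0.0017 and 0.01 in the same order of cell types, against 0.11, 0.0034, 0.01 and -0.01 over all genes. Of these neighbours 0 passed in each germ cell type and 1 passed in liver, against 10.3%, 0.965%, 0.821% and 9.55% of all genes. The 95% interval for Pgk2 ran from -0.61 to 0.46 in pre-mid-pachytene cells and from -0.59 to 0.49 in spermatids.

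None of the 6 genes had a mean of at least 4 over the 6 liver arrays, and none was tested between the genotypes, where 9.55% of 8180 genes passed. Without that filter 1 of 6 passed, against 5.22% of all 15780 genes. This was Slc2a3, with a difference of -1.59 (adjusted p = 0.00106) and no overlap between the trisomic arrays (2.38 to 3.14) and the euploid arrays (3.76 to 4.91). The trisomic values of 2.38 and 2.80 lie in the background range and that of 3.14 just above it, so the difference has no exact size. The part of the background correction in it was not tested.

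Against liver, all 6 genes were higher in every germ cell type in both genotypes. In trisomic males 32.1% of all genes were higher in pre-mid-pachytene cells, 38.5% in mid-late-pachytene cells and 43.4% in spermatids than in liver. In euploid males these shares were 31.4%, 44.3% and 40.3%. The differences ran from 7.44 to 14.08 in trisomic and from 6.14 to 12.95 in euploid males, with Hk1 in pre-mid-pachytene cells at the low end and Ldhc in mid-late-pachytene cells at the high end. The euploid value for Ldhc was 14.14 without the first euploid liver array. Most liver levels were at or near the background range, so these differences measure height above it.

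Genes of the pathway outside the set were read from a list of 24 other glycolysis genes, 17 of which were on the array. Between pre-mid and mid-late pachytene 6 were higher and 3 lower in each genotype, with a median difference of 0.03 in trisomic and 0.11 in euploid males, against 0.04 and 0.06 over all genes. Over all genes 25.4% were higher and 21.6% lower in trisomic and 29.6% higher and 21.2% lower in euploid males. From pre-mid pachytene to spermatids 7 were higher and 3 lower in trisomic and 9 higher and 2 lower in euploid males, with medians of 0.18 and 0.47 against 0.04 over all genes in each. Over all genes 29.8% were higher and 23.7% lower in trisomic and 30.6% higher and 22.8% lower in euploid males in that comparison. Pfkp and Pfkm, subunits of phosphofructokinase, rose by 5.81 and 4.08 in euploid males, to 11.23 ± 0.38 and 13.25 ± 0.02 (SD, n = 2). Eno4, an enolase of the sperm tail in mice, rose by 3.65 to 12.98 ± 0.20 (SD, n = 2). Pkm, the pyruvate kinase of muscle and many other tissues, had a course like that of Gapdhs, with 11.59 in euploid pre-mid-pachytene cells, 8.70 in mid-late-pachytene cells and 12.41 in spermatids, and it rose by 3.71 in the last step (adjusted p = 8.2e-09). Against liver, Ldhal6b, a lactate dehydrogenase gene transcribed in testis, was higher in euploid mid-late-pachytene cells by 13.88. Ldhd and Pfkl, also of the list, were in the background range in euploid mid-late-pachytene cells, at 1.66 and 2.32, against 11.24 and 10.68 in euploid liver. Of 11 list genes tested between the genotypes in pre-mid-pachytene cells, Eno4 alone passed, a share near the 10.3% of all genes, with 8.49 ± 0.08 in trisomic and 9.33 ± 0.25 in euploid males (SD, n = 3 each, adjusted p = 0.0111).

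Of 13 genes for glucose and lactate transport on the array, 3 were higher and 2 lower in spermatids than in pre-mid-pachytene cells in each genotype, with a median of 0.03 in each. These counts do not exceed the shares of all genes, 29.8% higher and 23.7% lower in trisomic and 30.6% and 22.8% in euploid males. Slc16a1, which encodes the lactate transporter MCT1, was 4.80 lower and Slc2a1, which encodes GLUT1, was 3.38 lower in euploid spermatids, at 3.59 ± 0.64 and 3.27 ± 0.04 (SD, n = 3). Slc2a5, the fructose transporter GLUT5, was 3.83 higher, and Slc2a8 rose by 5.33 between the pachytene fractions. Between the genotypes in pre-mid-pachytene cells, 1 of 6 tested passed, against 10.3% of all genes: Slc16a7, which encodes the lactate and pyruvate transporter MCT2, had 12.03 ± 0.52 in trisomic and 13.21 ± 0.43 in euploid males (SD, n = 3 each, adjusted p = 0.013).

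Of 10 genes for fructose 2,6-bisphosphate and gluconeogenesis, 5 were higher and 1 lower in spermatids than in pre-mid-pachytene cells in each genotype, with a median of 0.84 in trisomic and 0.96 in euploid males. Of all genes 29.8% were higher and 23.7% lower in trisomic and 30.6% higher and 22.8% lower in euploid males. Pcx, pyruvate carboxylase, was lower by 4.43 in euploid males, and G6pc3, a glucose-6-phosphatase, was higher by 3.22. Pfkfb4, a bifunctional enzyme known from testis, rose by 3.63 between the pachytene fractions, and Pfkfb3 rose by 3.08 from mid-late pachytene to spermatids, in euploid males. In liver Pfkfb3 was lower in trisomic males, with 5.53 ± 0.88 against 8.15 ± 1.21 in euploid males (SD, n = 3 each, adjusted p = 0.00455, limma). There 9.55% of all genes tested passed.

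**Figure D5:**
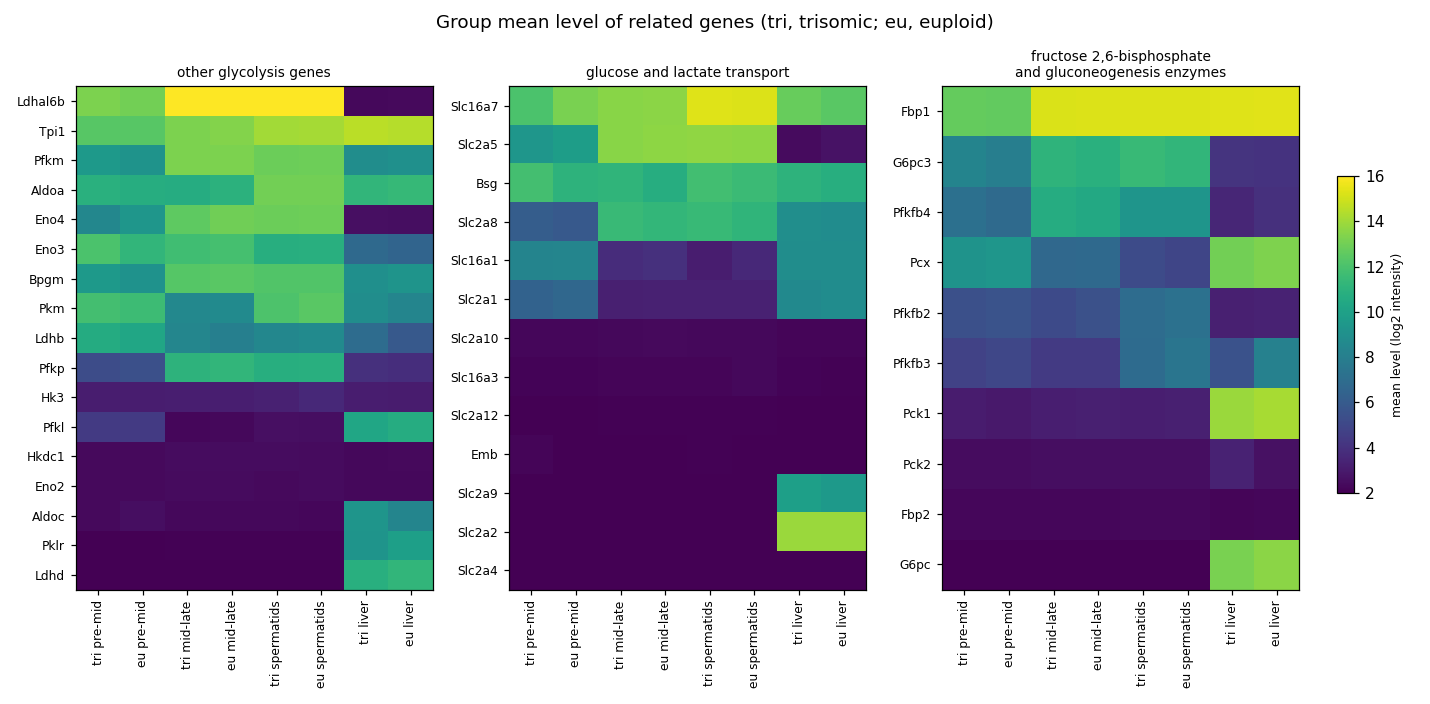
Mean level (log2 intensity, colour) of the genes of 3 lists (rows, ordered by their mean in germ cells) in each group (columns, trisomic left of euploid within each cell type). Pfkp, Pfkm, Eno4, Slc2a5, Slc2a8 and Pfkfb4 are brighter in the later germ cell stages, and Slc16a1, Slc2a1 and Pcx are darker there than in pre-mid-pachytene cells.

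Pgk2 belongs to the autosomal copies of X-linked genes that are active in meiosis, when the X chromosome is silenced. The 4 X-linked parents on the array from a list of other such pairs were all lower in mid-late than in pre-mid-pachytene cells in both genotypes, with a median difference of -2.83 in trisomic and -3.51 in euploid males, against 0.04 and 0.06 over all genes. Of all genes 21.6% were lower and 25.4% higher in trisomic and 21.2% lower and 29.6% higher in euploid males. Cstf2, a cleavage stimulation factor, fell by 4.63 to 4.72 ± 0.32 in euploid males (SD, n = 2). Rbmx, an RNA-binding protein, was in the background range in euploid mid-late-pachytene cells, with 2.17 ± 0.27 (SD, n = 2). It had 6.23 ± 0.33 in pre-mid-pachytene cells (SD, n = 3), so no exact fall is given. Pdha1 already read 3.09 ± 0.63 in euploid pre-mid-pachytene cells (SD, n = 3), so its fall is also limited by that range. Of the 3 autosomal copies on the array, 2 rose in trisomic and 3 in euploid males, with medians of 1.01 and 2.16. Pdha2, the testis copy of a pyruvate dehydrogenase subunit, rose by 2.16 in euploid males, and Pgk2 did not pass in this step. Pdha2 was also higher in trisomic than in euploid pre-mid-pachytene cells, with 13.58 ± 0.25 against 12.60 ± 0.59 (SD, n = 3 each, adjusted p = 0.0139, limma). In that comparison 10.3% of all genes tested passed.

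The fibrous sheath of the sperm tail is the structure to which GAPDHS is bound. A list of fibrous sheath and other sperm tail genes, the latter Tekt2, Odf1 and Odf2, had 10 genes on the array. All 10 were higher in spermatids than in pre-mid-pachytene cells in both genotypes. The median difference was 1.75 in trisomic and 1.499 in euploid males, against 0.04 over all genes in each. Of all genes 29.8% in trisomic and 30.6% in euploid males were higher there. In euploid males Fsip1 rose by 4.88 and Tekt2 by 4.33 in that comparison. Akap4, the main anchoring protein of the sheath, rose by 4.20 and Cabyr, a calcium-binding protein of the sheath, by 4.07 from mid-late pachytene to spermatids. Akap4 and Odf1 also belong to the elongating spermatid markers. Between the genotypes Tekt2 was lower in trisomic pre-mid-pachytene cells, with 9.04 ± 0.37 against 10.22 ± 0.54 in euploid males (SD, n = 3 each, adjusted p = 0.00743, limma). In that comparison 10.3% of all genes tested passed. Tekt2, Eno4, Slc16a7 and Pdha2 were named because they passed, in a fraction where 10.3% of all genes passed. The list medians of the pachytene, round spermatid and spermatogonia markers were lower there on the trisomic arrays, and those of the other marker lists overlapped. The part of any of these markers was not tested. In liver Ropn1l was higher by 1.13 and Gstm5 by 0.88 in trisomic males, and they were the 2 genes of the list tested there, where 5.77% of all genes were higher and 9.55% passed in either direction.

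The genes most like each of 3 isozymes were named by Pearson's r over the 8 group means, among 9443 genes whose means spanned at least 2. This r is set mostly by the gap between germ cells and liver, which nearly all these genes share. For Ldhc they were Dnajc2, Rsph1, Rpl39l, Fabp9 and Sugp2, with r from 0.9989 to 0.9996. For Pgk2 they were Kifap3, 1700074P13Rik, Spata6, Adad1 and Cox6b2, with r between 0.9996 and 0.9997. For Gapdhs they were Spz1, Iqcf3, Akap4, Spata18 and Gxylt2, with r from 0.9987 to 0.9998, and Akap4 and Spata18 are elongating spermatid markers. Spz1 had 14.18, 10.66 and 14.95 in trisomic pre-mid-pachytene cells, mid-late-pachytene cells and spermatids, and 14.11, 10.99 and 15.13 in the euploid groups. Within the set, r over the same 8 means ran from 0.871 between Slc2a3 and Gapdhs to 0.994 between Pgk2 and Ldhc.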

How the data were processed

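Levels were taken from the deposited log2 intensities per probe set, which the authors computed with GCRMA, per the submitters' processing notes. GCRMA corrects background by probe base content, quantile-normalizes and summarizes probes; which arrays were processed together is not given in the sources used here. Of 16539 probe sets, 15780 carried 1 gene symbol, 759 had none and were not used, and 15752 matched the GRCm38.p6 gene table. All 22 arrays were fitted as 8 group means with limma 3.58.1 (R 4.3.3; statmod 1.5.0), two-sided, with Benjamini-Hochberg adjustment over all named genes and a threshold of 0.05. Genotype comparisons and interactions were limited to genes averaging 4 or more in each cell type compared, and stage and liver comparisons used no filter. The reported fit used no replicate pairing, and the replicate block was run as an alternative. Same-numbered trisomic and euploid arrays correlated with r = 0.11, 0.31 and 0.15 in liver, while elsewhere not all pairs exceeded 0.1. Promoters came from RefSeq, and figures from matplotlib 3.10.9 (python 3.11.15).

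Alternatives were quantile normalization, centring on the autosomal median, other filters, all probe sets, trended robust priors, only the arrays compared, germ cell arrays only, the replicate block and leaving out single arrays. The fit was tested on simulated data. The members and lists were chosen with earlier results of these data known. Of each other list, up to 4 genes past the threshold with the largest change and no overlap of arrays were named per family of comparisons. The number of arrays limits the precision.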

Additional observations from a re-analysis of the deposited data

How the results depend on the processing

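Every difference between germ cells and liver kept its direction and its side of the threshold, and no call of a gene of the set between stages was lost, under the alternatives run. No gene of the set passed between the genotypes in any germ cell type, and the count in liver was 1 with no filter and otherwise 0. The trisomic count between pre-mid and mid-late pachytene was 5 with autosomal centring, under which 70.7% of all genes passed, and Hk1 (1.60) and Pgk2 (0.75) also passed. The signs that turned belonged to differences that did not pass. With quantile normalization these were Gapdhs (-0.13) and Ldhc (-0.0048) between genotypes in pre-mid pachytene, Pgk2 between euploid pachytene fractions (-0.076), Ldhc from mid-late pachytene to spermatids (0.047 in trisomic, 0.064 in euploid males) and Gapdhs in trisomic spermatids minus pre-mid pachytene (-0.10). With centring they were Pgk2 between genotypes in pre-mid pachytene (0.0083) and Ldhc in spermatids (0.0026). With the replicate block, Ldhc in euploid spermatids minus mid-late pachytene was 0.13, Pgk2 between trisomic pachytene fractions passed (0.70, adjusted p = 0.0373), and no other call changed.

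Leaving out single arrays, genotype differences in pre-mid pachytene ran from -0.31 to 0.15 for Pgk2, from -0.29 to 0.14 for Pgam2 and from -0.11 to 0.32 for Gapdhs. In mid-late pachytene they ran from -0.19 to 0.33 for Slc2a3 and from -1.03 to 0.52 for Gapdhs, where the upper value left out the first euploid array. In spermatids they ran from -0.049 to 0.0068 for Ldhc, from -0.017 to 0.14 for Slc2a3 and from -0.12 to 0.030 for Pgk2. The cause of these changes was not tested. The alternative with each other probe set of a gene was not run, since each named gene had 1 probe set. Groups of 2 or 3 arrays limit what can be told apart, and liver levels near background limit the size of every difference from liver.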
